A study of Mus musculus with 12 samples.

Results

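The cytosolic ribosomal protein genes were described in natural killer (NK) cells sorted from mouse pancreatic tumours. The genes were taken by symbol: Rps or Rpl followed by a number and, optionally, a, l or x, together with Rpsa, Rplp0, Rplp1 and Rplp2. This rule found 83 of the 27179 rows of the count table, of which 32 encode proteins of the small subunit, 48 proteins of the large subunit and 3 proteins of the P-stalk of the large subunit. The rule uses names only, so it also takes in testis and muscle paralogs and 2 rows, Rpl6l and Rps4l, that RefSeq annotates as pseudogenes.

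NK cells are innate lymphocytes that kill tumour cells. Wild-type tumour-bearing mice formed 4 groups, each with 3 libraries collected on day 21. The combination group received both cGAMP, a cyclic dinucleotide that activates the DNA-sensing adaptor STING, and an antibody that blocks the cytokine IL-35. The cGAMP group and the anti-IL-35 group received 1 agent each, and the control group received IgG. The labels name IgG for that group alone and describe the antibody as IL-35 blocking. cGAMP was injected intravenously at 10 µg, 4 times, and the antibody intraperitoneally at 200 µg, 3 times. Both courses started on day 8 with injections every 3 days, and PBS is named in the protocol as the substitute for cGAMP. Whether separate mice gave the 3 libraries of each group is not stated in the labels, so p-values measure only library-to-library spread, possibly technical. Library totals ran from 12811353 to 22217766 assigned reads.

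Ribosomal proteins and ribosomal RNA make up the subunits of the ribosome, and a cell needs nearly equal numbers of most of these proteins. Their mRNAs are among the most abundant of any cell. In mammals most of them begin with a C followed by an uninterrupted run of pyrimidines, the terminal oligopyrimidine (TOP) start, through which mTOR signalling and the RNA-binding protein Larp1 control their translation and stability. Resting lymphocytes keep large amounts of these mRNAs, and activated lymphocytes enlarge their ribosome production.

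The start sites of a few genes are shown because the TOP start is the sequence feature that the family is best known for, and to set it beside the responses below. Each line gives 20 bases before and 20 bases from the annotated RefSeq start on build GRCm38.p6, which is mm10, 5′ to 3′ on the strand of the gene, with the pyrimidine run at the start in capitals. The first 4 genes start with C and at least 4 further pyrimidines. Rps24 and Rps9 both start with T inside a pyrimidine run that begins before the annotated start. Rpl23 has no pyrimidine at its annotated start.
Rps6 (chr4:86857348-86857387, minus strand): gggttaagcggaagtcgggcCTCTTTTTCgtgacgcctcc
Rpl35 (chr2:39005112-39005151, minus strand): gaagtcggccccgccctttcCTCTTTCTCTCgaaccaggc
Rpl28 (chr7:4792945-4792984, plus strand): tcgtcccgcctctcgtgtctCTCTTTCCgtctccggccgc
Rplp2 (chr7:141447631-141447670, plus strand): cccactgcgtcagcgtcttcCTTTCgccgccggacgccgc
Rps24 (chr14:24490658-24490697, plus strand): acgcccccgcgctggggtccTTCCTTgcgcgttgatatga
Rps9 (chr7:3704021-3704060, plus strand): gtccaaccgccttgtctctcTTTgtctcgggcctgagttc
Rpl23 (chr11:97782420-97782459, minus strand): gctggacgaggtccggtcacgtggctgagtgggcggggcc
The RefSeq promoter table held 61 of the 83 genes. A C followed by 4 pyrimidines at an annotated start was found for 14 of these 61 genes (23.0%), against 813 of all 27025 genes in the table (3.01%). This count depends on the exact annotated base: a start placed a few bases off, inside a pyrimidine run, can be missed. It is therefore no count of the genes that lack a TOP start. The letters CCGGAAG, the core of the site bound by ETS factors, stood on either strand of the 300-base window of 25 of the 61 genes (41.0%), against 9.93% of all genes. The letters AAGATGGC, the site of YY1, stood on either strand in 5 of them (8.20%), against 3.19% of all genes. The motifs share no full match, and a match describes these letters and does not show binding.

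Ribosomal protein transcripts took 4.91 ± 0.064% of counts with the combination, 5.50 ± 0.245% with cGAMP and 4.77 ± 0.175% with anti-IL-35, against 5.90 ± 0.0348% with IgG (SD, n = 3 libraries each). The libraries of both antibody-treated groups lay below every cGAMP and IgG library. On the scale used below, counts scaled by TMM to a common library size (CPM, the usual unit of edgeR), their sum was 51047 ± 675 with the combination, 55544 ± 2167 with cGAMP, 48702 ± 1837 with anti-IL-35, against 55135 ± 290 with IgG (SD, n = 3 each). With cGAMP the share of counts was below that with IgG, while the TMM-scaled sum overlapped it. These sums are descriptions, with no test.

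Transcripts of other cells differed between the same libraries. Neutrophil markers were called higher than with IgG for 16 of 16 genes in each treated group, and their summed level ranged from 20348 to 20416 CPM with the combination, from 11894 to 12076 with cGAMP and from 22179.97 to 23399 with anti-IL-35, against 5129 to 5326 with IgG. B cell markers ranged from 16769 to 17040.00 CPM with the combination, from 16326 to 16842 with cGAMP and from 6973 to 7099 with anti-IL-35, against 15505 to 15869.6 with IgG, and 14 of 14 were called lower with anti-IL-35 than with IgG. Neutrophil transcripts were thus high in all treated groups, and B cell transcripts were low with anti-IL-35 alone. Summed levels (SD, n = 3 each) with the combination, cGAMP and anti-IL-35, against IgG, were 485 ± 11.1, 594 ± 6.85 and 463 ± 7.94, against 633 ± 7.02 CPM for T cell markers. For macrophage markers they were 6581 ± 89.9, 5649.9 ± 94.9 and 5656 ± 49.4, against 5580.1 ± 59.3 CPM, and for dendritic cell markers 6024 ± 169.8, 5939.7 ± 40.8 and 4851 ± 84.6, against 7127 ± 93.7 CPM. Erythroid markers summed to 1092 ± 23.1, 1222 ± 17.7 and 606 ± 14.3, against 499 ± 18.4 CPM, and epithelial markers, the lowest of these lists, ranged from 9.05 to 14.4, 14.3 to 19.1 and 15.4 to 17.4 CPM, against 16.6 to 22.1 CPM. NK receptors, which check the label, were all expressed and summed to 2523 ± 77.8 CPM with the combination, 3212 ± 114 with cGAMP and 2898 ± 188 with anti-IL-35, against 2894 ± 23.6 with IgG. NK effector genes summed to 6070.01 ± 70.7, 6619 ± 74.9 and 6407 ± 22.8, against 6021 ± 28 CPM in the same order. Calls lower than IgG with the combination, cGAMP and anti-IL-35 numbered 8, 2 and 14 of 14 B cell, 11, 2 and 11 of 12 T cell, 6, 3 and 10 of 12 macrophage, 6, 5 and 6 of 11 dendritic cell, 3, 1 and 0 of 7 epithelial, and 6, 0 and 2 of 9 NK receptor genes. Calls higher, in the same order, numbered 5, 6 and 3 of 7 for erythroid markers and 0, 6 and 0 of 9 for NK receptors. They numbered 1, 5 and 3 of 9 for NK effectors, 2, 1 and 0 of 14 for B cell and 1, 1 and 1 of 12 for macrophage markers. Also lower than IgG were 1 of 9 NK effectors with the combination and 1 of 7 erythroid genes with anti-IL-35. Of all tested genes, 7.5%, 3.56% and 9.32% were called lower and 15.7%, 9.37% and 15.7% higher, in the same order. Several of the smaller counts lie near these shares. NK receptors, used below as a scaling reference, were thus themselves called different from IgG in each treated group. No gene of these lists was at 0 in all libraries. In bulk RNA, fewer cells of a type and less RNA per cell cannot be told apart, and the part of the other cells in the results below was not tested.

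**Figure D1:**
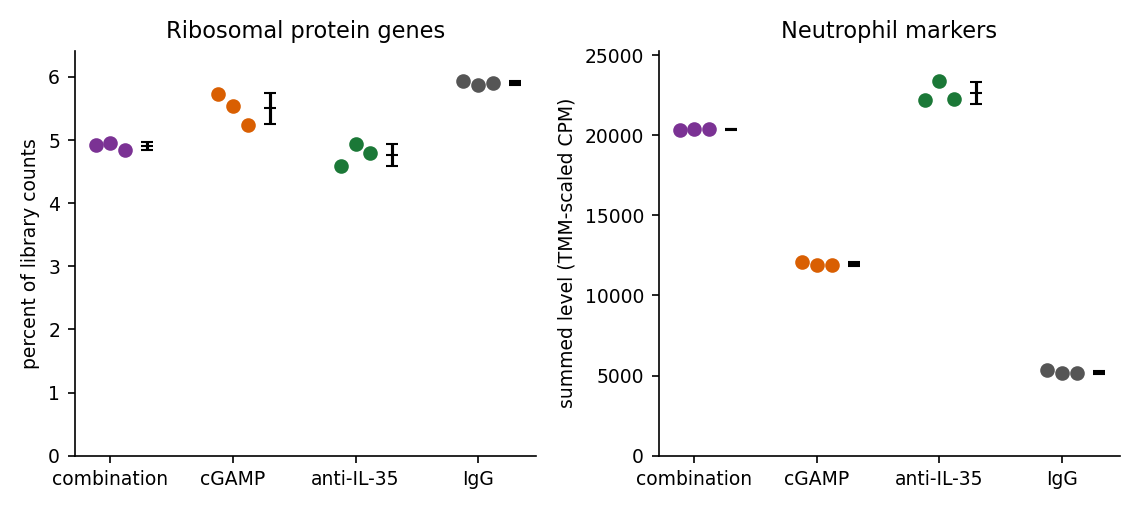
Share of library counts in the 83 ribosomal protein genes (left, percent) and summed level of 16 neutrophil markers (right, TMM-scaled CPM) in each of 12 libraries; points are libraries, bars the mean and SD of 3. Ribosomal protein transcripts took 4.58 to 4.96% of counts in the combination and anti-IL-35 libraries and 5.24 to 5.94% in the cGAMP and IgG libraries, while neutrophil markers were above IgG in all treated groups.

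Of the 83 genes, 81 passed the filter on low counts. The 2 that did not were Rpl10l, a testis retrogene related to Rpl10, and Rpl39, a small protein of the exit tunnel. Rpl10l had 0 counts in every library, which allows up to 0.0142 CPM over all libraries. Rpl39 had 26 counts in all and at most 10 in a library, although it is a component of all ribosomes, and how reads shared with near-identical copies were counted is not given in the sources used here. Many of these genes have processed pseudogenes, so every level below carries that uncertainty. Of the 81, 75 averaged at least 100 CPM. The other 6 were Rps27l, Rpl6l, Rps4l, Rpl32l, Rpl3l and Rpl39l.

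Per kilobase of exon, the 75 abundant genes had a median level of 842 CPM, with 651 and 1075 at the quartiles. The highest were Rplp1, Rps27, Rps12, Rpl23a and Rps15, at 2006, 1834, 1637, 1557 and 1452 CPM per kilobase over the 4 groups. Rplp1, an acidic protein of the stalk that recruits elongation factors, stood at 1955 ± 129.8 CPM per kilobase with the combination, 2120.5 ± 204 with cGAMP and 1792 ± 155 with anti-IL-35, against 2158 ± 85.2 with IgG (SD, n = 3 each). Rps27, a zinc-binding protein of the small subunit, stood at 1867 ± 64.7, 1985 ± 173 and 1560.4 ± 269, against 1922 ± 174 CPM per kilobase in the same order. The order of Rplp1 and Rps27 was not resolved beyond their SDs in any group. The partners of Rplp1 in the stalk were lower per length: in IgG libraries Rplp0, the base of the stalk, stood at 1312 ± 18 and Rplp2 at 732 ± 9.5 CPM per kilobase. Rps20 and Rps15a came out low at 157 and 110 CPM per kilobase, but their annotated principal transcripts of 3706 and 5130 bases are far longer than those of the rest of the family, so these values are uncertain.

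The tissue-restricted paralogs were near the floor of detection. Rpl39l, the testis paralog of Rpl39, had 68 counts in 12 libraries, and Rpl3l, the muscle paralog of Rpl3, had 77. Rpl32l had 207 counts. Rps27l, a paralog of Rps27 known as a p53 target, was expressed throughout at 74.9 CPM per kilobase, compared with 1834 for Rps27. Its level was 35.7 ± 3.03 CPM with the combination, 40.9 ± 2.03 with cGAMP and 32.7 ± 2.31 with anti-IL-35, against 40.1 ± 4.54 with IgG.

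With anti-IL-35 alone, most ribosomal protein mRNAs fell, each by a small amount. Of the 81 tested genes, 53 were called lower and 0 higher than with IgG (edgeR quasi-likelihood test, Benjamini-Hochberg adjusted p under 0.05 over 14182 genes), while 9.32% of all tested genes were called lower and 15.7% higher. At an unadjusted p under 0.05 the counts were 64 lower and 0 higher, and DESeq2 called 0 higher. The share of all genes past that unadjusted threshold was not counted, so these 2 counts have no background. The median log2 fold change of the 81 was -0.20, against -0.02 for all tested genes. Values lay below 0 for 76 of the 81, against 52.9% of all genes. The libraries of the 2 groups did not overlap, with anti-IL-35 lower, for 60 of 81 genes, against 18.7% of all genes. The falls were spread over both subunits, with 18 of 32 small-subunit genes, 32 of 46 large-subunit genes and 3 of 3 stalk genes called lower. With the libraries scaled on NK receptor transcripts 29 of the 53 calls were kept and none turned, against 7.34% of all genes called lower on that scale. Scaled on the summed counts of the family itself, 6 genes were higher and 7 lower, against 29.2% and 3.69% of all genes.

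Rpl22, which is dispensable for most translation but needed for development of alpha-beta T cells in mice (chromosome 4, 152324436 to 152334082), stood at 226, 243 and 219 CPM with anti-IL-35, against 294, 292 and 299 CPM with IgG. All anti-IL-35 libraries lay below all IgG libraries, and the log2 fold change was -0.36 ± 0.05 (SE, adjusted p = 3.38e-08), a fall of 22.3%. Rpl35, which lies beside the exit tunnel where the signal recognition particle docks (chromosome 2, 39001581 to 39005131), stood at 332, 364 and 349 CPM with anti-IL-35, against 462, 436 and 446 CPM with IgG. The gap between the groups was several times the spread within them (-0.36 ± 0.05, adjusted p = 1.93e-08).

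Further large falls were of large-subunit genes. Rpl36a, at the site where tRNA leaves, stood at 200.1, 211 and 188 CPM with anti-IL-35, against 257, 259.8 and 253 CPM with IgG (-0.36 ± 0.05, adjusted p = 5.50e-08). Rpl23, which faces the small subunit and can bind Mdm2, the ligase that degrades p53, stood at 557, 583 and 502 CPM with anti-IL-35, against 712, 698 and 679.96 CPM with IgG (-0.35 ± 0.05, adjusted p = 4.94e-08). Rpl37a, a zinc-binding protein, stood at 365, 485 and 438 CPM with anti-IL-35, against 569, 550.4 and 554 CPM with IgG (-0.38 ± 0.09, adjusted p = 0.0055). None of the 3 overlapped between groups, and the anti-IL-35 libraries of Rpl37a were spread widely, with replicate 1 the lowest.

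Most of the well-studied members differed less than these. Rps6, the substrate of S6 kinase, stood at 1107, 1121 and 1152 CPM with anti-IL-35, against 1188, 1196 and 1209 CPM with IgG, and was not called (-0.09 ± 0.04, adjusted p = 0.0584). Rpl5 and Rpl11, which together bind Mdm2 when ribosome assembly stalls, changed by -0.18 ± 0.04 and -0.22 ± 0.04 with anti-IL-35 against IgG and were both called (adjusted p = 0.000283 and adjusted p = 5.15e-05). Rps19, the gene most often mutated in human Diamond-Blackfan anaemia, fell to 436 ± 26.2 CPM with anti-IL-35, against 545 ± 0.843 CPM with IgG (-0.32 ± 0.06, adjusted p = 2.84e-05). Rplp0, Rplp1 and Rplp2 of the stalk fell by 0.14, 0.27 and 0.22 on the log2 scale. Rpl13a, which can leave the ribosome to silence mRNAs in human myeloid cells treated with interferon gamma, fell by 0.17 (adjusted p = 0.00134). Rpl3 and Rpl10, both near the site of peptide bond formation, fell by 0.20 and 0.11 (adjusted p = 8.54e-06 and adjusted p = 0.0135). Rpsa, also known as the laminin receptor, fell by 0.11 (adjusted p = 0.00727), and Rps27l fell by 0.29 (adjusted p = 0.0267). Rps4x, the X-linked small-subunit gene, stood at 574 ± 11.3 CPM with anti-IL-35 and 572 ± 17 CPM with IgG (0.00 ± 0.04, adjusted p = 0.955).

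The family did not move as 1 block. Scaled on its own summed counts, which holds that sum fixed, 7 genes were lower than the rest with anti-IL-35 against IgG, among them Rpl37a, Rpl35, Rpl22, Rpl36a, Rpl23 and Rps19. The 6 that were higher on that scale included Rps9, Rps14, Rps4x, Rps10 and Rps25. On the TMM scale none of these 6 was called in that comparison. Rps9, a small-subunit protein at the mRNA entry, stood at 489, 506 and 541 CPM with anti-IL-35, against 496, 484 and 501 CPM with IgG, and Rps14, a small-subunit protein of the decoding platform, at 786, 834 and 842 CPM, against 774, 789 and 854 CPM. Their groups overlapped.

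**Figure D2:**
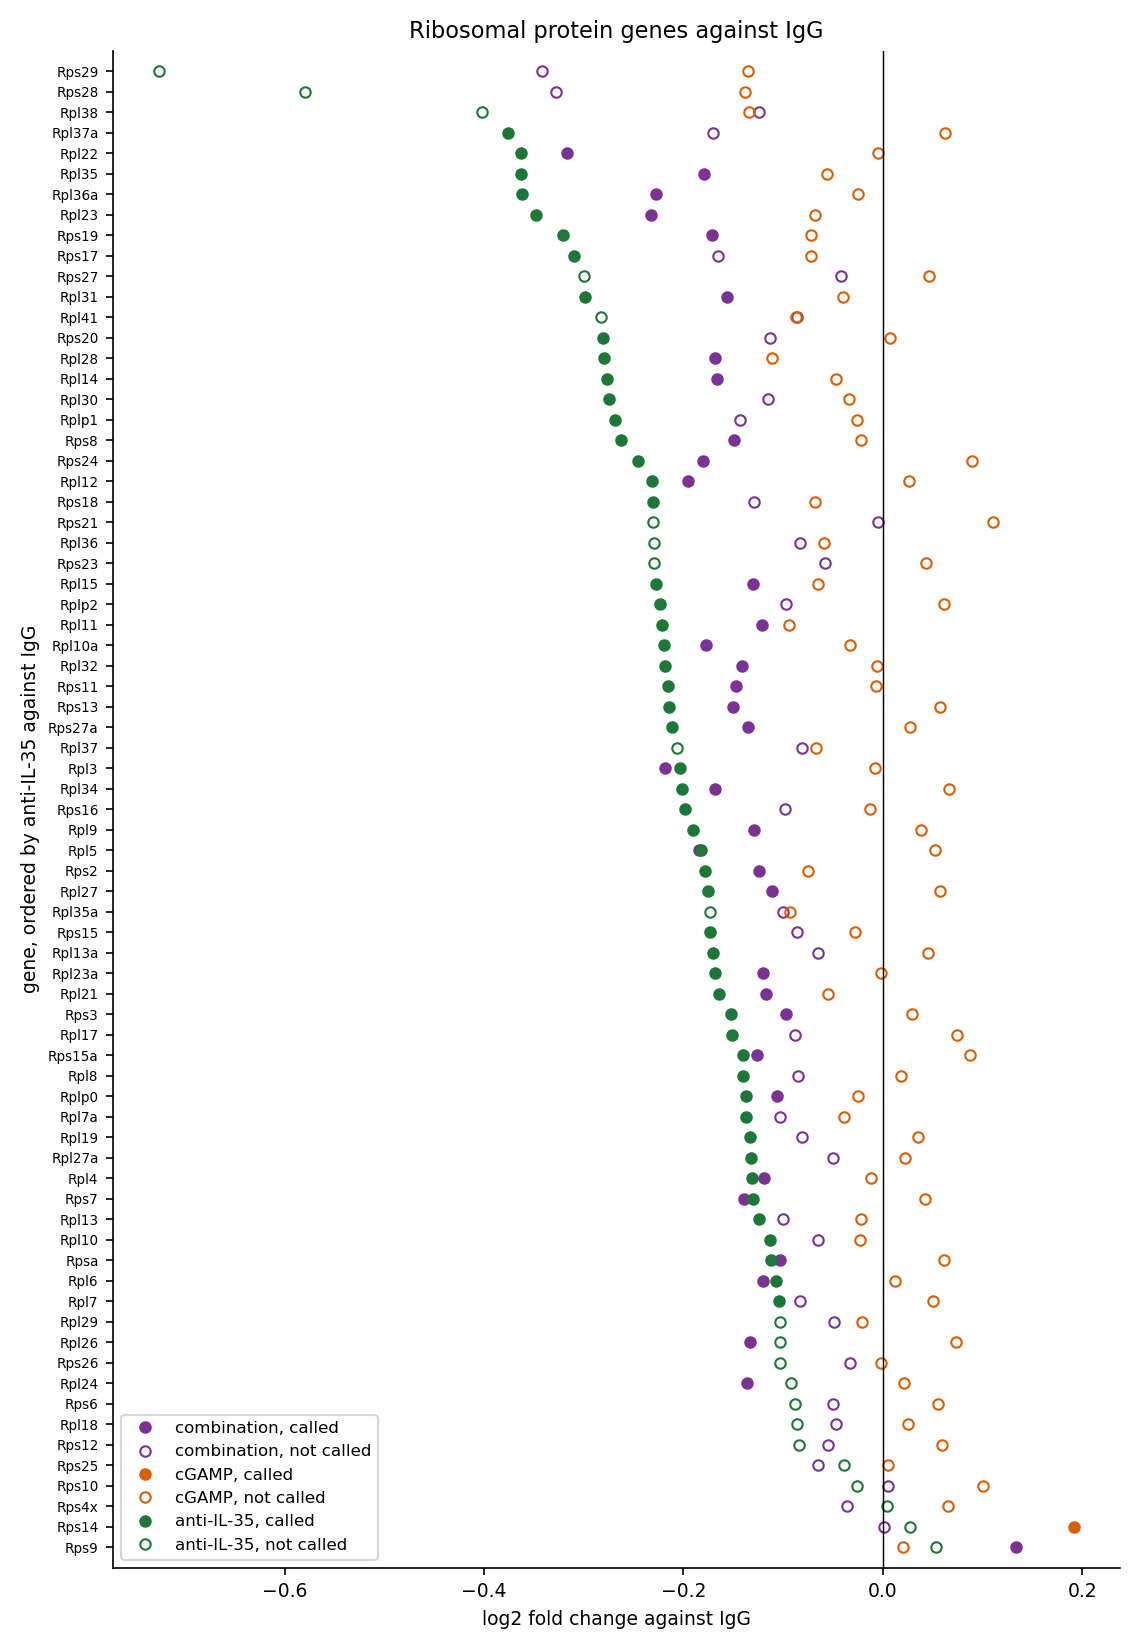
Log2 fold change against IgG (x axis) of 73 of the 75 ribosomal protein genes averaging 100 CPM or more (y axis, ordered by anti-IL-35 against IgG); filled points were called by edgeR at an adjusted p under 0.05, open points were not. With anti-IL-35 and the combination 72 of the 75 lay below 0, while cGAMP values fell on both sides; with libraries scaled on NK receptors the combination values shift up as a block and their median turns positive.

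cGAMP alone left the level of the family near that of IgG on the TMM scale. Of the 81 genes, 2 were called higher and 0 lower with cGAMP than with IgG, while 9.37% of all tested genes were called higher and 3.56% lower. At an unadjusted p under 0.05, where the share of all genes was not counted, 6 were higher and 4 lower. DESeq2 also called 0 lower. The median log2 fold change was -0.01, against 0.02 for all genes, and 43 of the 81 lay below 0, against 46.6% of all genes. Among the 75 abundant genes values ran from -0.14 for Rps28 to 0.19 for Rps14, with a median SE of 0.04 over the 81 tested. Libraries did not overlap for 12 genes with cGAMP higher and 5 with cGAMP lower, against 18.1% and 11.1% of all genes. This result depended on the scaling: with library totals alone 0 genes were higher and 23 lower, against 4.24% and 9% of all genes, and scaled on NK receptors 0 were higher and 6 lower, against 2.61% and 8.19% of all genes.

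Rps14, one of the genes called higher, which is reduced in a human myelodysplastic syndrome with a chromosome deletion, stood at 916, 930.1 and 914 CPM with cGAMP, against 774, 789 and 854 CPM with IgG (0.19 ± 0.04, adjusted p = 0.000403). Every cGAMP library lay above every IgG library, and the call was lost under library totals alone and under scaling on NK receptors. Rpl22, which fell with the antibody, stood near IgG with cGAMP, at 309, 294 and 279 CPM with cGAMP, against 294, 292 and 299 CPM with IgG. These groups overlapped, with a log2 fold change of -0.01 ± 0.05.

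With the combination the family was again lower than with IgG on the TMM scale, with 37 of 81 genes called lower and 1 higher, but this direction was not kept when libraries were scaled on NK receptors, where 0 were lower and 3 higher, against 1.49% and 29.6% of all genes on that scale. On the TMM scale, of all tested genes, 7.5% were called lower and 15.7% higher. The median of the 81 was -0.12, against -0.02 for all genes, and 76 lay below 0, against 52.3% of all genes. Libraries did not overlap for 54 genes with the combination lower and 1 with it higher, against 17.2% and 21.6% of all genes. By subunit, 13 of 32 small-subunit, 23 of 46 large-subunit and 1 of 3 stalk genes were called lower.

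Scaling adds one shift to the log2 fold changes of all genes. Scaling on NK receptors moved the median of all genes to 0.18 for the combination against IgG, 0.34 for the combination against cGAMP, 0.20 for the combination against anti-IL-35, 0.33 for the interaction and -0.13 for cGAMP against IgG, and library totals alone moved it to -0.17 for the combination and -0.15 for anti-IL-35 against IgG. The family median minus the median of all genes is left nearly as it was by such a shift, by construction, so it describes the position of the family and is no sign of stability. On the TMM scale that difference was -0.10 for the combination, -0.02 for cGAMP and -0.17 for anti-IL-35, each against IgG, and -0.11 for the combination against cGAMP.

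Rpl22 was among the largest called falls with the combination as well. Rpl22 stood at 229.8, 243 and 237 CPM with the combination, against 294, 292 and 299 CPM with IgG (-0.32 ± 0.05, adjusted p = 8.81e-07). The combination libraries lay below the IgG libraries, and the value rests on the same IgG libraries as the anti-IL-35 comparison. Rpl23 and Rpl36a fell by 0.23 each (adjusted p = 0.000129 and adjusted p = 0.000354), and Rpl3 fell by 0.22, with 937, 968 and 940.3 CPM with the combination, against 1100.5, 1100.1 and 1109 CPM with IgG. The pseudogene row Rps4l had the largest called fall, at 9.64, 8.64 and 8.59 CPM, against 12.1, 11.2 and 14.7 CPM with IgG (-0.50 ± 0.18, adjusted p = 0.0405), and whether reads shared with Rps4x contribute to it was not tested. Rps9 was the 1 gene called higher, at 556, 547 and 520.03 CPM with the combination, against 496, 484 and 501 CPM with IgG (0.13 ± 0.05, adjusted p = 0.0265). That call was lost with DESeq2, with library totals alone, with no filter on low counts, and without replicate 1 or 2 of the combination or any 1 of the IgG replicates.

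Of the well-studied genes, Rpl5, Rpl11, Rps19, Rplp0 and Rpsa were called lower with the combination than with IgG, with values of -0.18, -0.12, -0.17, -0.11 and -0.10 on the log2 scale. Under scaling on NK receptors these values turned to 0.01, 0.08, 0.03, 0.09 and 0.10, none of them called. Rps6, Rpl10, Rpl13a, Rplp1, Rplp2, Rps4x, Rps27, Rps27l, Rpl41, Rpl38 and Rps29 did not pass the test, with values of -0.05, -0.06, -0.07, -0.14, -0.10, -0.04, -0.04, -0.17, -0.09, -0.12 and -0.34.

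**Figure D3:**
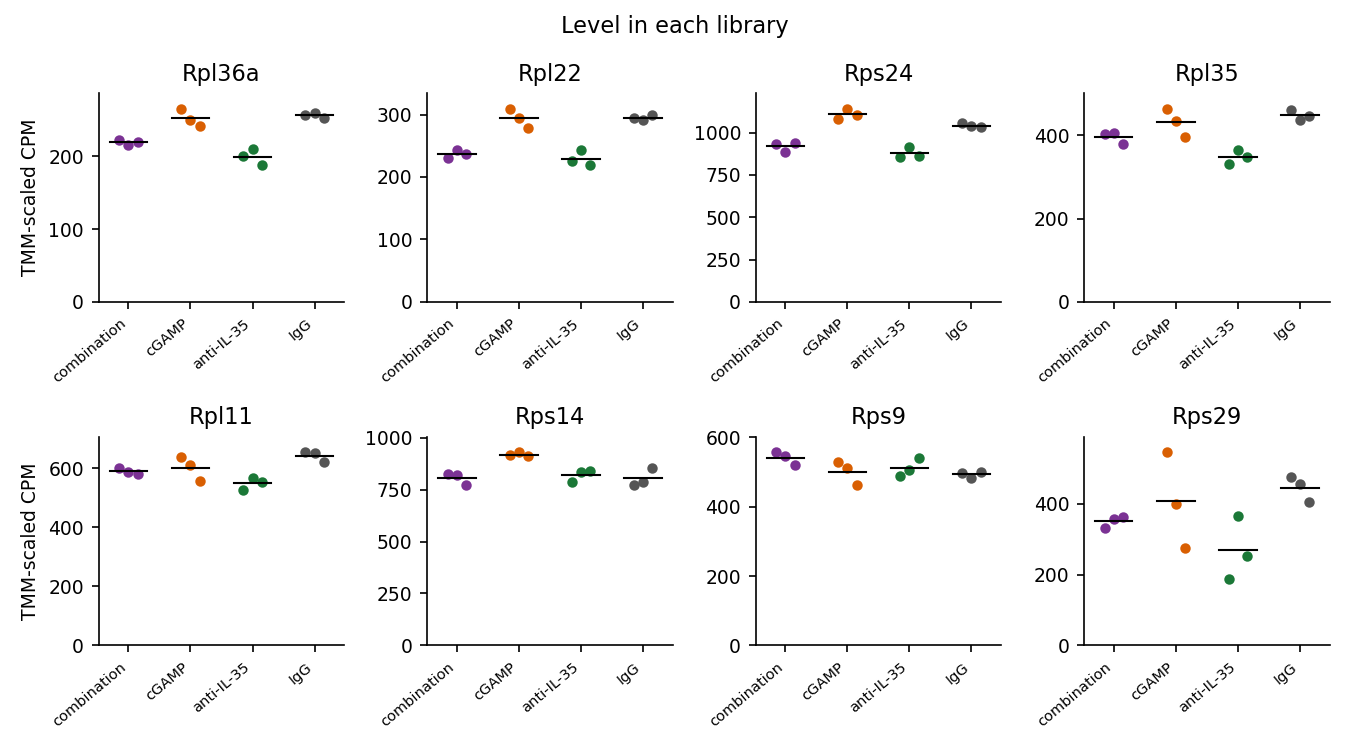
TMM-scaled CPM (y axis, from 0) of 8 ribosomal protein genes in each of 12 libraries, with a line at the mean of each group of 3. Rpl36a, Rpl22, Rps24 and Rpl35 were lower with anti-IL-35 than with IgG, Rps14 was high with cGAMP, Rps9 was slightly above IgG in the combination libraries, and Rps29 varied widely within the cGAMP and anti-IL-35 groups.

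The combination was also compared with each single agent. Against cGAMP, 35 of 81 genes were lower and 0 higher with the combination on the TMM scale, but 0 were lower and 55 higher when libraries were scaled on NK receptors, which were themselves called lower for 9 of 9 genes. On the NK receptor scale 48.9% of all genes were called higher and 0.55% lower. At an unadjusted p under 0.05, where the share of all genes was not counted, 44 were lower and 1 higher. DESeq2 called 0 higher. Of all tested genes, 4.83% were called lower and 9.99% higher, and libraries did not overlap, with the combination lower, for 41 of the 81, against 12% of all genes. On the TMM scale 75 lay below 0, against 50.9% of all genes. Rpl22 stood at 229.8, 243 and 237 CPM with the combination, against 309, 294 and 279 CPM with cGAMP (-0.31 ± 0.05, adjusted p = 2.43e-06). The gap was wider than the spread of the libraries. Rps24, another small-subunit protein mutated in Diamond-Blackfan anaemia, stood at 932, 885 and 940.3 CPM with the combination, against 1082, 1139.96 and 1102 CPM with cGAMP (-0.27 ± 0.04, adjusted p = 1.84e-07). Rpl5 stood at 878, 896 and 937 CPM with the combination, against 1062, 1043 and 1089.6 CPM with cGAMP (-0.24 ± 0.04, adjusted p = 8.86e-06). Neither overlapped between the groups. Rps6 was called in this comparison (-0.11 ± 0.04, adjusted p = 0.0324), as were Rpsa, Rpl3 and Rplp2, with values of -0.16, -0.21 and -0.16. Leaving out cGAMP replicate 2 reduced the lower calls to 21.

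Against anti-IL-35, the combination was close. Of the 81 genes, 3 were called higher and 0 lower, while 3.67% of all tested genes were called higher and 2.17% lower, so the share of the family lay near that of all genes. At an unadjusted p under 0.05, where the share of all genes was not counted, 18 were higher and 0 lower. DESeq2 called 0 lower. Libraries did not overlap for 15 genes, with the combination higher, against 10.2% of all genes, and 13 genes lay below 0, against 50.3% of all genes. Rpl35 stood at 402, 406 and 379 CPM with the combination, against 332, 364 and 349 CPM with anti-IL-35 (0.18 ± 0.05, adjusted p = 0.0099). Rps20, in the head of the small subunit, stood at 585, 573 and 564 CPM, against 484, 541 and 508 CPM (0.17 ± 0.04, adjusted p = 0.0109). Rpl30 stood at 461, 485 and 479.6 CPM, against 397, 456 and 423 CPM (0.16 ± 0.05, adjusted p = 0.0251). In all 3 every combination library was above every anti-IL-35 library. No call of the 3 was left without anti-IL-35 replicate 1, and 10 genes were called higher without anti-IL-35 replicate 2. Scaled on NK receptors, 65 genes were higher, against 20.8% of all genes.

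The effect of the antibody can be read in pairs of groups that share no library: anti-IL-35 against IgG, and the combination against cGAMP. Lower calls numbered 53 without cGAMP and 35 with it, and 29 genes were called lower in both, which is 54.7% of the first list and 82.9% of the second. Of all tested genes, 9.32% and 4.83% were called lower in these comparisons. The share of all genes lower in both was not counted, so the overlap has no background. Scaled on NK receptors, 0 of the 35 calls with cGAMP were kept and 22 turned. Among the 75 abundant genes 70 lay below 0 in both on the TMM scale, and 56 had the more negative value without cGAMP. The sizes of the changes agreed only loosely from gene to gene: across the 75 genes Pearson's r was 0.33 and Spearman's rho 0.18, and over the 69 genes with transcripts of at least 450 bases they were 0.38 and 0.21. These are descriptions across genes, whose values share libraries, depth and transcript length. Rpl22 stood at the low end of both, and Rps9 was the 1 abundant gene above 0 in both. For the effect of cGAMP, read as cGAMP against IgG and the combination against anti-IL-35, r was -0.49 and rho -0.46 across the same 75 genes.

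The interaction, the effect of the antibody with cGAMP minus that without it, was called positive for 4 genes and negative for 1, while 3.62% and 6.78% of all tested genes were called in those directions, and 21 of the 81 values lay below 0, against 52.5% of all genes. Rpl35, Rpl28, Rpl11 and Rpl30, all of the large subunit, had values of 0.24 ± 0.07, 0.22 ± 0.06, 0.20 ± 0.06 and 0.19 ± 0.07 (adjusted p = 0.0123, adjusted p = 0.00796, adjusted p = 0.0285 and adjusted p = 0.0472 in that order). Rpl28 stood at 537, 529 and 510.5 CPM with the combination and 569.8, 551 and 521 CPM with cGAMP, and at 465, 501 and 494 CPM with anti-IL-35 and 602, 594 and 577 CPM with IgG. The antibody groups overlapped with cGAMP and did not without it. Rpl11 stood at 601, 588 and 581 CPM with the combination and 637, 609.9 and 557 CPM with cGAMP, and at 527, 568 and 555 CPM with anti-IL-35 and 653, 650.2 and 621 CPM with IgG. Its fall with the antibody was likewise seen without cGAMP and was not called with it (adjusted p = 0.767). Rps14 was the negative gene (-0.22 ± 0.06, adjusted p = 0.00609). It stood at 825, 822 and 771 CPM with the combination and 916, 930.1 and 914 CPM with cGAMP, with no overlap, while without cGAMP it had 786, 834 and 842 CPM with anti-IL-35 and 774, 789 and 854 CPM with IgG. Under scaling on NK receptors 67 genes were positive and 0 negative, against 26.9% and 1.45% of all genes, and Rps14 turned to 0.13. With library totals alone 17 were positive, against 5.35% of all genes, scaled on the family's own sum 0 were positive and 1 negative, against 2.59% and 7.71%, and leaving out single libraries gave 1 to 13 positive.

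**Figure D4:**
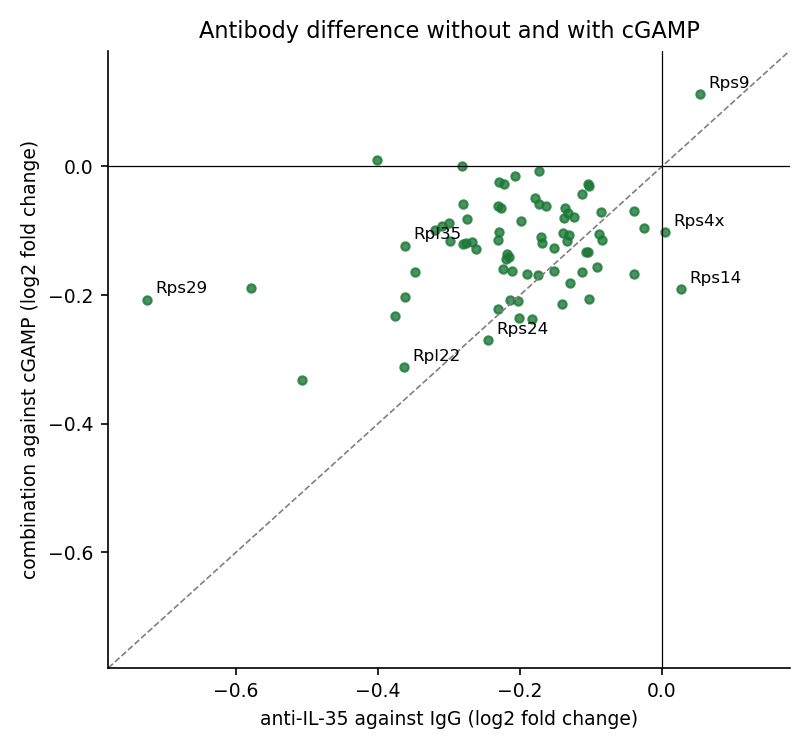
Log2 fold change of the antibody without cGAMP (anti-IL-35 against IgG, x axis) and with cGAMP (combination against cGAMP, y axis) for 75 ribosomal protein genes averaging 100 CPM or more; each point is a gene and the dashed line marks equal values. Of the 75, 70 lay below 0 in both on the TMM scale and 56 lay above the dashed line, and scaling on NK receptors moves the y values up as a block, past 0 for most genes.

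Short transcripts were measured with the least precision. The 6 abundant genes with transcripts under 450 bases, Rps29, Rpl38, Rps28, Rps21, Rpl36 and Rps27, had a median SD within groups of 0.243 on the log2 scale, against 0.060 for the 44 genes from 450 to under 900 bases and 0.041 for the 25 longer ones. Across the 75 genes Spearman's rho of length and SD was -0.59, a description across genes. Rps29, a short zinc-binding protein, stood at 189, 365 and 253 CPM with anti-IL-35, against 477, 455 and 404 CPM with IgG, 39.5% lower in the fit but not called (-0.73 ± 0.28, adjusted p = 0.101). Rps28, and Rpl38, which mice need for translation of Hox mRNAs, had values of -0.58 ± 0.20 and -0.40 ± 0.21 (adjusted p = 0.0713 and adjusted p = 0.233). With anti-IL-35 the largest differences among the abundant genes were thus in genes that did not pass the test, and none of the 6 was called in any of the 6 comparisons. The short genes moved together by library. Their median deviation from the group mean was -0.39 in anti-IL-35 replicate 1 and -0.31 in cGAMP replicate 3, against 0.27 in cGAMP replicate 1 and 0.24 in anti-IL-35 replicate 2. In those 4 libraries 7 genes outside the family with transcripts under 450 bases and at least 100 CPM deviated by -0.08, -0.05, 0.08 and 0.11. Without anti-IL-35 replicate 1 and cGAMP replicate 3, a setting chosen after the values were seen, 59 genes of the family were lower with anti-IL-35 than with IgG. In that setting 62 were lower with the combination than with IgG, and 52 were lower with the combination than with cGAMP. Of all 14347 genes tested there, 1539, 1574 and 619 were lower, in the same order. With the difference between short and long transcripts outside the family as a covariate, also chosen after the values were seen, the family counts were 65, 49 and 41. Of all 14182 tested genes, 1410, 1137 and 721 were lower with the covariate, against 1322, 1064 and 685 in the main fit. Rpl41, the shortest ribosomal protein, was not called in any comparison, with 515 ± 17, 515 ± 84.3 and 449 ± 64.3 CPM with the combination, cGAMP and anti-IL-35, against 547 ± 25.7 CPM with IgG.

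**Figure D5:**
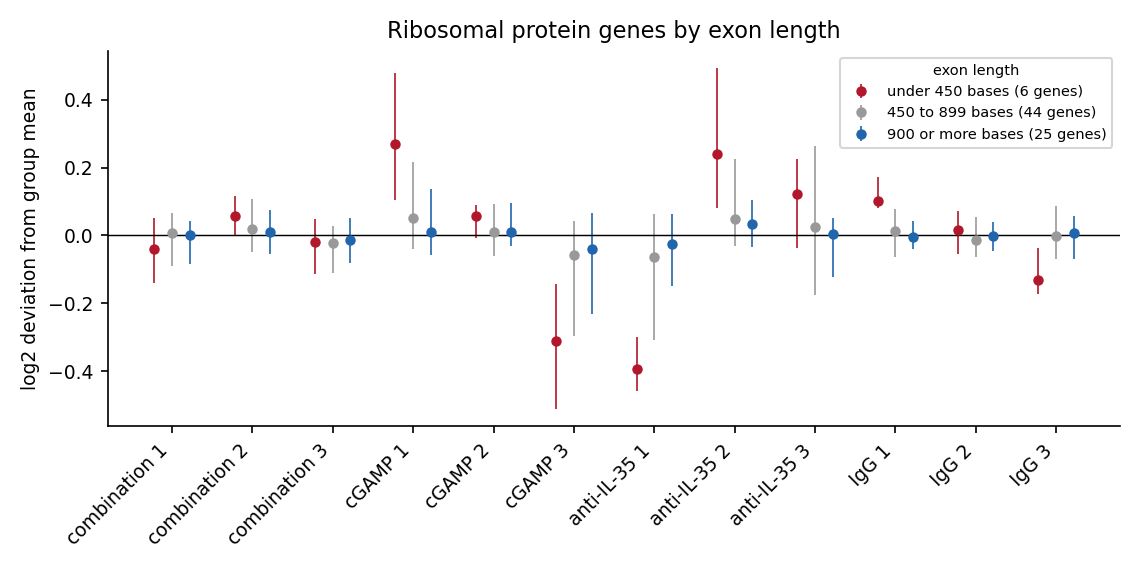
Median log2 deviation from the group mean (y axis) of ribosomal protein genes in 3 classes of exon length, in each of 12 libraries (x axis), with bars from the lowest to the highest gene of the class. The 6 genes under 450 bases lay 0.39 below the group mean in anti-IL-35 replicate 1 and 0.31 below it in cGAMP replicate 3, while the medians of the genes of 900 or more bases lay between -0.039 and 0.035, with single genes of that class down to -0.231 in cGAMP replicate 3.

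Genes with and without an annotated TOP start are set side by side here as a description, without a test. Of the abundant genes in the promoter table, 13 had a C and 4 pyrimidines at the annotated start and 42 did not. The 42 can include genes with a TOP start whose annotated base is a few bases off, which was not tested. The classes are therefore uncertain. With anti-IL-35 against IgG, 7 of the 13 and 30 of the 42 were called lower, with medians of -0.23 and -0.17. With the combination against IgG, 5 of the 13 and 23 of the 42 were lower on the TMM scale, with medians of -0.12 and -0.12. The median fall and the share called did not order the classes the same way with anti-IL-35. Of the genes printed above, Rpl35, with a run of 11 pyrimidines, fell by 0.36 with anti-IL-35, Rps6, with a run of 9, had a value of -0.09, and Rpl23, with none at its annotated start, fell by 0.35.

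Ribosomal protein genes whose symbols lie outside the pattern, 7 in all, included 3 lower in combination libraries, 4 lower in anti-IL-35 libraries and 2 higher in cGAMP libraries, each against IgG, with medians of -0.09, -0.15 and 0.00. Rpl22l1, the paralog that mouse Rpl22 represses, stood at 34.1, 37.7 and 36.1 CPM with the combination, 44.6, 44.9 and 44.8 with cGAMP and 38.9, 42 and 29.1 with anti-IL-35, against 51.4, 53.6 and 50.9 CPM with IgG. Like Rpl22 it was called lower with both antibody treatments (-0.53 ± 0.10, adjusted p = 3.90e-05, with the combination and -0.50 ± 0.10, adjusted p = 7.35e-05, with anti-IL-35), and its cGAMP value was not called (-0.22 ± 0.10, adjusted p = 0.173). Rps3a1, of the small subunit, fell by 0.15 with anti-IL-35 (adjusted p = 0.000573). Fau, which encodes a ubiquitin-like domain fused to a small-subunit protein, was higher with cGAMP (0.14 ± 0.04, adjusted p = 0.0098).

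Lists of other genes of translation are given with the shares of all genes called against IgG, which were 7.5% lower and 15.7% higher with the combination, 3.56% and 9.37% with cGAMP, and 9.32% and 15.7% with anti-IL-35. Of 19 other TOP mRNAs, 9 were lower and 0 higher with anti-IL-35 than with IgG, 6 lower and 0 higher with the combination, and 1 lower and 4 higher with cGAMP, with medians of -0.05, -0.06 and 0.02 in that order. The median of all genes was -0.02, -0.02 and 0.02. Hnrnpa1, an RNA-binding splicing regulator, was at 243, 283 and 278 CPM with the combination, 298, 335 and 298 with cGAMP and 304, 296 and 279.7 with anti-IL-35, against 357, 375 and 364 CPM with IgG (-0.45 ± 0.05 with the combination, adjusted p = 9.52e-10). Rack1, a scaffold on the small subunit, fell by 0.27 with anti-IL-35 (adjusted p = 6.92e-06), and Eef1a1, the factor that delivers tRNA, fell by 0.10 (adjusted p = 0.00939). Of 22 initiation factors, 2 were lower and 0 higher with anti-IL-35, 3 lower and 2 higher with the combination, and 1 lower and 2 higher with cGAMP than with IgG, with medians of -0.07, -0.03 and -0.01, so their lower calls with anti-IL-35 lay near the share of all genes. Eif4a1, the helicase that opens mRNA leaders, had log2 fold changes of -0.20, -0.26 and -0.19 with the combination, cGAMP and anti-IL-35. Of 77 mitochondrial ribosomal protein genes, 2 were higher and 3 lower with the combination, 1 higher and 0 lower with cGAMP, and 3 higher and 1 lower with anti-IL-35, with medians of -0.08, -0.04 and -0.16, and few of them passed the test in either direction. Mrpl33 was the gene higher in all 3, by 0.46, 0.23 and 0.61.

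Some ribosome assembly genes were lower too. Of 43, the combination against IgG gave 14 lower and 1 higher, cGAMP 5 lower and 0 higher, and anti-IL-35 13 lower and 0 higher, with medians of -0.20, -0.10 and -0.18. Nop56, which guides methylation of ribosomal RNA, stood at 55.7, 59.5 and 55.7 CPM with the combination, 59.9, 54.6 and 63.7 with cGAMP and 64.4, 60.3 and 60.8 with anti-IL-35, against 74.6, 72.1 and 70.2 CPM with IgG, and was called lower in all 3. Gar1, of the pseudouridylation complex, was also called in all 3, with log2 fold changes of -0.45 ± 0.13, -0.39 ± 0.13 and -0.62 ± 0.13. The 5 assembly genes called with cGAMP compare with 3.56% of all genes called lower there. Among 20 regulators of growth, Myc, which drives ribosome production, had 43.7, 40.1 and 42.8 CPM with the combination, 38.7, 39.9 and 50.1 with cGAMP and 34.2, 44.7 and 46.3 with anti-IL-35, against 59.2, 55.3 and 59.4 CPM with IgG, and all 3 falls were called (-0.46 ± 0.10, -0.43 ± 0.10 and -0.47 ± 0.10). Eif4ebp1, the translation repressor that active mTOR inhibits, was higher. It stood at 60.3 ± 3.03 CPM with the combination, 41.9 ± 2.26 with cGAMP and 61.3 ± 1.71 with anti-IL-35, against 33.3 ± 3.13 CPM with IgG (SD, n = 3 each). Ddit4, an inhibitor of mTOR, was lower in all 3, with log2 fold changes of -0.38, -0.41 and -0.63. In all, 4 regulators were higher and 6 lower with the combination, 3 and 3 with cGAMP, and 4 and 3 with anti-IL-35, with medians of 0.06, -0.04 and -0.11.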

How the data were processed

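RNA from tumour NK cells was sequenced in 12 libraries, made from 1 µg of RNA each. The deposited table holds whole-number read counts per gene, made by the authors with STAR 2.7.7a, SAMtools and featureCounts on mm10, per the submitters' processing notes; the annotation, strand setting and treatment of multiply mapping reads are not given in the sources used here. From these counts, genes passing filterByExpr at a minimum count of 10 (14182) were scaled by TMM and fitted over all 4 groups, without a block, with edgeR 4.0.16 (robust quasi-likelihood), and p-values were adjusted by Benjamini-Hochberg at 0.05. DESeq2 1.42.0 was an alternative; R was 4.3.3. The test was also run on simulated counts, drawn independently for each library with a fixed spread. Those counts lack the shared shifts of short transcripts described above, and no result of that run is used here. Levels are TMM-scaled CPM; exon lengths come from GENCODE vM21 and start sites from RefSeq GRCm38.p6. Mitochondrial genes were found by symbol and by RefSeq chromosome. Of all counts, 0.251% lay in 1049 rows without a symbol. Same-numbered libraries did not deviate together (18 correlations from -0.025 to 0.038), so numbers do not pair them. The members and lists were chosen with earlier results of these data known. Members described singly were the 6 largest called changes without overlap in each direction against IgG, the 4 largest in each other comparison, the 5 highest and 5 lowest per length, and a set of well-studied genes; up to 3 genes with the smallest p per comparison were eligible from each other list, a few of which are given. Floors and counts of detection cover counting error only. Protein sequences were not used here. A few genes enter the fits and counts but are not reported here.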

Additional observations from a re-analysis of the deposited data

Results flagged for a closer look

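The antibody difference was not the same in the groups of libraries with and without cGAMP for 5 ribosomal protein genes, by the test of the interaction in edgeR. They were Rpl35 (0.24), Rpl28 (0.22), Rpl11 (0.20), Rpl30 (0.19) and Rps14 (-0.22), on the log2 scale. The test measures spread between libraries, which the labels do not tie to separate mice. For the first 4, the antibody values were -0.12, -0.06, -0.03 and -0.08 with cGAMP (the combination against cGAMP), against -0.36, -0.28, -0.22 and -0.27 without it (anti-IL-35 against IgG). For Rps14 they were -0.19 with cGAMP, against 0.03 without it. These are 4 positive and 1 negative of 81 tested members. Of all tested genes, 3.62% and 6.78% were called in those directions, so the counts of the family lie near or below these shares. Scaled on the family's own sum, 0 were positive, and leaving out single libraries gave 1 to 13 positive. Under scaling on NK receptors Rps14 turned to 0.13. The cause was not tested.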

How the results depend on the processing

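Counts of ribosomal protein genes called higher and lower depended most on scaling. In this paragraph the calls over all tested genes in the same setting follow the family counts. Scaled on library totals alone, cGAMP against IgG gave 0 higher and 23 lower, the combination against IgG 0 and 67, and the interaction 17 and 0. Of all genes, 4.24% were higher and 9% lower, 9.59% and 23.8%, and 5.35% and 4.12%, in that order. Scaled on NK receptors, cGAMP against IgG gave 0 and 6, anti-IL-35 against IgG 0 and 29, and the combination against IgG 3 and 0. The combination against cGAMP gave 55 and 0, the combination against anti-IL-35 65 and 0, and the interaction 67 and 0. Of all genes, 2.61% and 8.19%, 13.2% and 7.34%, 29.6% and 1.49%, 48.9% and 0.55%, 20.8% and 0.494%, and 26.9% and 1.45% were called, in that order. Scaled on the family's own sum, the counts were 1 and 0 for cGAMP, 6 and 7 for anti-IL-35 and 1 and 2 for the combination against IgG. They were 1 and 3 for the combination against cGAMP, 0 and 0 for the combination against anti-IL-35, and 0 and 1 for the interaction. Of all genes, 7.26% and 3.15%, 29.2% and 3.69%, 22.6% and 2.67%, 17.5% and 1.47%, 2.2% and 3.79%, and 2.59% and 7.71% were called, in that order. With no filter on low counts, cGAMP against IgG gave 1 and 2, the combination against IgG 0 higher, the combination against anti-IL-35 5 higher and the interaction 13 higher. Of all 19275 genes tested there, 1034 and 661, 1934, 526 and 603 were called, in that order. With only the groups compared in the fit, 4 genes were lower with cGAMP and 59 with the combination than with IgG. Over all genes, 807 of 13404 and 1493 of 13532 were lower. The interaction needs all groups and was not run that way. DESeq2 gave 0 higher for the combination against IgG and 2 negative interactions, against 2195 and 1060 of all 14182 genes. Without anti-IL-35 replicate 1 and cGAMP replicate 3, chosen after seeing the data, the combination gave 0 higher and 62 lower than IgG and 0 higher than anti-IL-35. The interaction gave 1 positive. Of all 14347 genes tested there, 2042 and 1574, 465 and 520 were called, in that order. With the covariate for short transcripts, also chosen after seeing the data, cGAMP gave 1 lower than IgG and the combination 1 higher than cGAMP. The combination gave 17 higher than anti-IL-35, and the interaction 17 positive. Of all 14182 genes, 553, 1482, 573 and 558 were called, in that order. The cause of these shifts was not tested.

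Leaving out 1 library gave 1 to 2 higher and 0 to 4 lower for cGAMP, 0 to 0 higher and 49 to 56 lower for anti-IL-35, and 0 to 1 higher and 26 to 31 lower for the combination, each against IgG. It gave 0 to 1 higher and 21 to 41 lower for the combination against cGAMP, 0 to 10 higher and 0 to 0 lower against anti-IL-35, and 1 to 13 positive and 1 to 1 negative interactions. The calls over all tested genes in these settings are not given, so these ranges have no background. With 1 library left out, the family's share of counts ran from 4.88 to 4.94% with the combination, 5.39 to 5.63% with cGAMP, 4.69 to 4.86% with anti-IL-35 and 5.89 to 5.92% with IgG. Out of the counts left without mitochondrial genes the shares were 5.24, 5.99, 5.06 and 6.29% in that order, and without immunoglobulin, mitochondrial and other-cell genes 5.61, 6.35, 5.34 and 6.64%.

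Single genes turned in sign under scaling alone. Scaled on NK receptors, for the combination against IgG, Rpl11 was 0.078, Rpl5 0.013, Rplp0 0.093, Rps19 0.027 and Rpsa 0.096. For the combination against cGAMP, Rpl22 was 0.034, Rps24 0.078, Rpl5 0.11, Rpl3 0.14, Rps6 0.24, Rplp2 0.19 and Rpsa 0.18, and the interaction of Rps14 was 0.13. With library totals alone, Rps9 was -0.023 for the combination against IgG. Scaled on the family's own sum, Rplp0 was 0.042, Rpl13a 0.0097, Rpsa 0.067 and Rpl10 0.067 for anti-IL-35 against IgG, Rplp0 was 0.0046 and Rpsa 0.0081 for the combination against IgG, and Rps6 was 0.014 for the combination against cGAMP.

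The replicate numbers do not pair the libraries. With a replicate block, 2 genes were higher with cGAMP, 55 lower with anti-IL-35, and 1 higher and 35 lower with the combination than with IgG, 30 were lower with the combination than with cGAMP, 3 were higher than with anti-IL-35, and 3 interactions were positive and 1 negative. Of all 14182 genes, 1243, 1303, 2178 and 1005, 625, 485, and 485 and 901 were called, in that order.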

Other observations

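Of 33 rows whose symbols mark ribosomal protein pseudogenes, the summed counts per library ran from 1032 to 1506, against 734316 to 1095332 for the 83 ribosomal protein genes.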
